A study of Mus musculus with 12 samples.

Results

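The bone-lining cell population sorted as Itga8- Alcam+ cells (Itga8- BLC) was compared across all genes with CD51+CD140a+ mesenchymal stem cells (CD51+CD140a+ MSC) of the marrow. The members were chosen by their labels alone: 3 Itga8- BLC libraries and 3 CD51+CD140a+ MSC libraries, 6 of the 12 libraries of the series. The series profiled 4 stromal populations of mouse bones and marrow by RNA sequencing of 2000 sorted cells per library, with 3 libraries each. All came from male wild-type C57BL/6 mice aged 8 to 10 weeks at steady state, and all cells were sorted as CD45- Ter119- CD31-, that is, without the surface markers of leukocytes, erythroid cells and endothelium. The labels give the cell type of the Itga8- Alcam+ Sca-1- cells as osteoblasts and that of the CD51+CD140a+ cells as mesenchymal stem cells. The populations were also prepared differently. Itga8- BLC came from femora, tibiae and iliac bones that were broken up after the marrow had been flushed out and then digested with collagenase, whereas CD51+CD140a+ MSC came from the flushed marrow of femora and tibiae after digestion with Accumax. The population and its preparation therefore cannot be told apart in any value given here. The labels do not say whether the 3 libraries of a population came from separate mice, so the tests measure the spread between these libraries.

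Bone-lining cells are flat, mostly quiescent cells of the osteoblast lineage that cover bone surfaces. Osteoblasts of this lineage lay down a matrix of type I collagen and small proteins that bind mineral, and some become osteocytes as they are enclosed in it. CD51 (integrin alpha V) and CD140a (PDGF receptor alpha) enrich perivascular stromal cells of the marrow, which overlap with the leptin receptor positive (LepR+), CXCL12-abundant reticular cells. These cells are known as the main stromal source of CXCL12 and of stem cell factor for haematopoietic stem cells (HSC).

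The deposited counts summed to 20084801, 27574679 and 20218341 in the Itga8- BLC libraries and to between 29652779 and 31332475 in the CD51+CD140a+ MSC libraries. Values are given below as counts per 1000000 counts (CPM) with library sizes scaled by the trimmed mean of M values (TMM), and counting noise sets a floor of 3 counts, which corresponded to between 0.0820 and 0.180 CPM in the 6 libraries. In Itga8- BLC the 10 most counted genes took 26.6 to 36.7% of a library, against 12.2 to 13.0% in CD51+CD140a+ MSC. The Itga8- BLC libraries also varied more among themselves: the median SD of log2 CPM over 7284 genes was 0.493 against 0.208, and log2 CPM correlated at 0.921 to 0.949 within Itga8- BLC, 0.960 to 0.974 within CD51+CD140a+ MSC and 0.768 to 0.828 between the populations. The first principal component of the 6 libraries carried 77.3% of the variance and separated the populations. The second, with 10.1%, set Itga8- BLC replicate 2 (score 82.4) apart from replicate 3 (score -71.0).

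The 4 genes given as markers separated the populations. Dmp1, which encodes an acidic matrix protein of late osteoblasts and osteocytes (chr5:104202613-104214102 of GRCm38), reached 1634, 1715 and 2265 CPM in the Itga8- BLC libraries and 6.15, 9.32 and 6.51 CPM in CD51+CD140a+ MSC, a log2 fold change 8.00 ± 0.72 SE, edgeR FDR 1.19e-05. Alcam, the adhesion molecule used for the sort (chr16:52248996-52454074), had 3.83, 5.10 and 5.82 CPM against 0, 0.0287 and 0.0644 CPM. Every CD51+CD140a+ MSC library was at or under the floor for Alcam, and its level was at least 55.7-fold higher in Itga8- BLC. Cxcl12, the chemokine that retains haematopoietic cells in the marrow (chr6:117168535-117181367), had 202, 290.3 and 201 CPM in Itga8- BLC and 44821, 34985 and 50664 CPM in CD51+CD140a+ MSC (log2 fold change -7.56 ± 0.51 SE, edgeR FDR 1.82e-06). Lepr, the leptin receptor (chr4:101717404-101815352), had 8.27, 49.2 and 15.9 CPM and 5727, 5869.6 and 6739 CPM (log2 fold change -7.96 ± 0.81 SE, edgeR FDR 2.96e-05). The libraries of the populations did not overlap for any of these 4 genes.

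Among the other genes of the sort, Itga8 (integrin alpha 8) was lower in Itga8- BLC, at 0.398, 4.17 and 0.659 CPM against 57.0, 82.9 and 53.1 CPM (log2 fold change -5.19 ± 0.88 SE, edgeR FDR 0.00104), and Pdgfra, the gene of CD140a, was lower too (log2 fold change -3.20). Both of these genes had counts in all 6 libraries. Ly6a, which encodes the Sca-1 antigen used to remove cells from the Itga8- BLC gate, was higher in Itga8- BLC at 28.4, 18.3 and 35.7 CPM against 1.23, 0.602 and 2.42 CPM (log2 fold change 4.28 ± 0.57 SE, edgeR FDR 0.000178). Itgav, the gene of CD51, was not called, with 22.8, 108 and 15.0 CPM in Itga8- BLC and 195, 121 and 177 CPM in CD51+CD140a+ MSC. The libraries did not overlap for Itgav, and replicate 2 of Itga8- BLC lay closest to the other population. Itgav passed as lower under 6 of the 17 alternatives, among them that without replicate 2 of Itga8- BLC (log2 fold change -3.12, edgeR FDR 0.0143). Ptprc (CD45) and Pecam1 (CD31) were also not called and stayed between 3.06 and 31.6 CPM. Without replicate 3 of Itga8- BLC, Ptprc passed as higher (log2 fold change 1.49, edgeR FDR 0.0485).

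**Figure D1:**
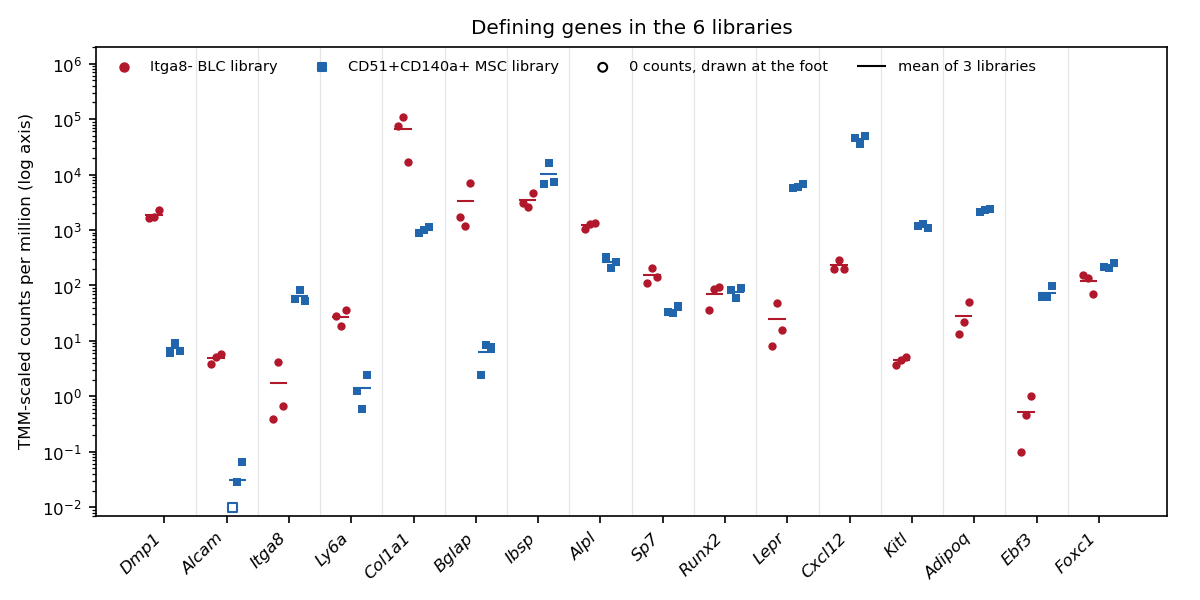
TMM-scaled CPM (log axis) of 16 defining genes in the 6 libraries; red circles are Itga8- BLC libraries, blue squares CD51+CD140a+ MSC libraries, bars the mean of 3 libraries, and the open symbol marks 0 counts. Dmp1 lay between 1634 and 2265 in Itga8- BLC and Cxcl12 between 34985 and 50664 in CD51+CD140a+ MSC, whereas the populations overlapped for Runx2.

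Across the genome, 18648 of 49585 genes reached 0.5 CPM, here by unscaled library totals, in at least 1 library of the series and were tested with the quasi-likelihood test of edgeR over all 12 libraries. Calls required a false discovery rate (FDR) below 0.1 together with more than a 2-fold difference. By this rule 3808 genes (20.4%) were higher and 2770 genes (14.9%) lower in Itga8- BLC. The libraries did not overlap for 3539 of the genes called higher and for 2717 of those called lower. Over all genes tested, Itga8- BLC lay above CD51+CD140a+ MSC without overlap for 26.3% and below it for 23.5%. These shares are the background for every count below. In 908 of the genes called higher every CD51+CD140a+ MSC library was at or under the floor, and in 357 of those called lower every Itga8- BLC library was.

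The balance of the calls depended on the scaling. Of the called genes 57.9% were higher in Itga8- BLC under TMM, and log2 fold changes over all genes tested had a median of 0.091. Scaled by library totals alone, 2934 genes were higher and 4090 lower, so that 41.8% of the calls were higher and the median was -0.24. TMM factors were 1.00, 0.783 and 0.825 in Itga8- BLC and 1.17, 1.12 and 1.05 in CD51+CD140a+ MSC. No called gene of the lists reversed its direction under any of the 17 alternative settings that were run.

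Bone matrix and mineralisation genes were mostly higher in Itga8- BLC. Of 25 genes listed 24 were tested, 18 were called higher, 4 lower and 2 were not called, with a median log2 fold change of 4.64 against 0.091 over all genes tested. The summed level of the list was 208929.8 to 397034 CPM in Itga8- BLC, against 19859 to 29003 CPM in CD51+CD140a+ MSC. In bulk libraries such as these, more cells of a type and more RNA per cell cannot be told apart.

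The genes of type I collagen, the main protein of bone, were among the most counted. Col1a1 had 75945, 107157 and 16656 CPM in Itga8- BLC and 899.7, 998 and 1121 CPM in CD51+CD140a+ MSC (log2 fold change 6.05 ± 1.08 SE, edgeR FDR 0.00136). Col1a2 had 53363, 197834 and 49738 CPM against 3271, 2673 and 4321 CPM (log2 fold change 4.87 ± 0.80 SE, edgeR FDR 0.000802). Replicate 2 was the highest of the Itga8- BLC libraries for both chains. Replicate 3 was the lowest for both, yet it was the highest for Sparc, which encodes osteonectin, a calcium- and collagen-binding protein. Sparc reached 63071, 61486 and 184257 CPM against 3476, 3201 and 4298 CPM (log2 fold change 4.81 ± 0.51 SE, edgeR FDR 3.94e-05), and the populations did not overlap for any of the 3 genes. Per length, in TPM (counts per exon base, scaled to the same sum in every library), the mean level was 73119 ± 32333 for Sparc and 32684 ± 24499 for Col1a1 in Itga8- BLC (mean ± SD, n = 3).

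Osteocalcin, a vitamin K-dependent protein of mature osteoblasts, is encoded by Bglap (chr3:88383501-88384464) and its near-identical neighbours Bglap2 and Bglap3. Reads can be split between the 3 by the counting. They were counted separately, and no joint value is given. Bglap had 1753, 1176 and 6983 CPM in Itga8- BLC and 2.40, 8.28 and 7.86 CPM in CD51+CD140a+ MSC (log2 fold change 9.06 ± 1.19 SE, edgeR FDR 0.00017), and Bglap2 had 974, 660.02 and 4670.2 and 1.48, 4.93 and 3.22 CPM (9.35 on the log2 scale). Replicate 3 was the highest Itga8- BLC library for both. Bglap3 was called higher too, from 20, 40 and 371 counts against 0 in every CD51+CD140a+ MSC library. Alpl, the tissue-nonspecific alkaline phosphatase that frees phosphate for mineral, was 1045, 1305 and 1321 CPM against 322, 209.9 and 265 CPM (log2 fold change 2.20 ± 0.40 SE, edgeR FDR 0.00156). The fibrillar minor chains Col11a1 and Col11a2 rose as well, by 4.89 and 5.97 on the log2 scale.

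The 4 genes called lower included Ibsp, bone sialoprotein, a protein that nucleates mineral (chr5:104299171-104311469). Ibsp had 3076, 2628 and 4681 CPM in Itga8- BLC and 6819, 16048 and 7486 CPM in CD51+CD140a+ MSC (log2 fold change -1.55 ± 0.40 SE, edgeR FDR 0.0128). Its highest CD51+CD140a+ MSC library was replicate 2. The others were Cdh11, osteoblast cadherin (-2.82), Mmp13, a collagenase of osteoblasts and hypertrophic cartilage (-2.67), and the phosphate transporter gene Slc20a2 (-1.79). The call of Slc20a2 was lost without replicate 1 or replicate 3 of Itga8- BLC (edgeR FDR 0.106 to 0.11). Spp1, which encodes osteopontin, had 2775, 1962 and 7928 CPM against 2154, 3502 and 2653 CPM and was not called (edgeR FDR 0.363). Its libraries overlapped.

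The 250 bases before the start of 3 of these genes are shown because Bglap and Dmp1 were among the largest bone-gene differences and Cxcl12 was the most counted gene of the other population. They are reference sequence from RefSeq on GRCm38.p6, written 5′ to 3′ on the gene's strand, and capitals mark the RUNX core TGTGGT or its other strand ACCACA anywhere in the window and TATAAA within the last 50 bases. The windows were chr3:88384467-88384716 (minus strand) for Bglap, chr5:104202367-104202616 (plus strand) for the second of 2 starts of Dmp1 and chr6:117168285-117168534 (plus strand) for Cxcl12.
Bglap: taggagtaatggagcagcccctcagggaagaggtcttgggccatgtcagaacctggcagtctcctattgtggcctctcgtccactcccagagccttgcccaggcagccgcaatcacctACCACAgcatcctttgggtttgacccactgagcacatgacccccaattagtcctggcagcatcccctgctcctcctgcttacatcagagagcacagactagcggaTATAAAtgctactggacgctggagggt
Dmp1: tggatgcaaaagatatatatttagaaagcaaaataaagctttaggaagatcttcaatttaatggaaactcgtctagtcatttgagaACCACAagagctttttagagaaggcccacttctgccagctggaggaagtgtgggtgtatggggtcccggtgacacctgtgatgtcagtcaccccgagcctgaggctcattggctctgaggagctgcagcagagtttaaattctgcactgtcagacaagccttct
Cxcl12: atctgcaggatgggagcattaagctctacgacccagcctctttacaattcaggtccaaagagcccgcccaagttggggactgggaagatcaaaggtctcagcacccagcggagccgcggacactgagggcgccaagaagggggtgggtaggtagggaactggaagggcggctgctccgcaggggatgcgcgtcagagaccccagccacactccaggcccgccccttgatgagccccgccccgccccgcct
Bglap held a RUNX core whose first base was at -132 and TATAAA at -27, Dmp1 held a RUNX core at -164, and Cxcl12 held neither. The first start of Dmp1 held none. Of all 32851 promoters listed by RefSeq, 14% held the RUNX core in this window and 2.63% held TATAAA. Among the bone matrix genes called higher, 13 of 18 had promoters there, and 2 of their 17 promoters held the core (11.8%), those of Bglap and Slc20a1. The call of Slc20a1 was lost under 7 alternatives, among them those without replicate 1 or 2 of either population (edgeR FDR 0.102 to 0.186). The core was in 2 of 8 promoters of the osteocyte genes called higher (25%), 5 of 17 of the cartilage markers called higher (29.4%), 1 of 18 of the LepR+ genes called lower (5.56%) and 0 of 10 of the HSC niche factors called lower. TATAAA was in 1 of 17 (5.88%) for the bone matrix genes, 0 of 8 for the osteocyte genes, 1 of 17 (5.88%) for the cartilage markers, 2 of 18 (11.1%) for the LepR+ genes and 1 of 10 (10%) for the niche factors. Such matches describe letters only and say nothing about binding.

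Osteocyte genes, of which 14 of 15 were tested, were called higher in 9 cases and lower in none, with 5 not called (1 lower without replicate 2 of Itga8- BLC and 1 with library totals alone) and a median log2 fold change of 3.16. The summed level overlapped, at 3853 to 5615 CPM in Itga8- BLC and 3371 to 3919 CPM in CD51+CD140a+ MSC. Sost, the sclerostin gene of osteocytes, was not tested, with 6, 11 and 3 counts against 0 in every CD51+CD140a+ MSC library. Fgf23 had 0, 12 and 1 counts against 8, 0 and 70 and was not called. Beside Dmp1, the called genes were Fam20c, the kinase that phosphorylates secreted matrix proteins (299.7, 359 and 221 CPM against 13.9, 14.0 and 15.2 CPM, log2 fold change 4.35 ± 0.45 SE, edgeR FDR 3.02e-05), Tnfrsf11b, Cd44, Capg, Irx5, Ptprz1, Pdpn and Dkk1. The call of Irx5, a homeobox gene, was lost under 12 of the 17 alternatives, including each of the 6 in which a library was left out (edgeR FDR 0.11 to 0.237). Mepe, a matrix phosphoglycoprotein gene of osteocytes, had 4.38, 2.04 and 2.28 CPM against 0.574, 1.58 and 0.290 CPM and was not called (edgeR FDR 0.213), although its libraries did not overlap. Phex, an endopeptidase of phosphate control, had 45.0, 225 and 46.5 CPM against 89.5, 97.8 and 105 CPM and was not called either (edgeR FDR 0.941). Gja1, the gene of connexin 43, which joins osteocytes through gap junctions, was at 1036, 2206 and 1937 CPM against 2915, 3269.6 and 2691 CPM, also not called (edgeR FDR 0.11). Its 3 Itga8- BLC libraries lay below those of CD51+CD140a+ MSC, and without replicate 2 of Itga8- BLC it passed as lower at an edgeR FDR of 0.0706.

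The osteoblast transcription factors were called higher in 6 of 12 cases and lower in 1, with a median log2 fold change of 0.69. Sp7, the osterix gene required for osteoblast formation, was 111, 204 and 145 CPM in Itga8- BLC and 33.9, 32.4 and 41.9 CPM in CD51+CD140a+ MSC (log2 fold change 2.09 ± 0.42 SE, edgeR FDR 0.003). Dlx3, a homeobox factor of late osteoblasts, had 22.3, 52.2 and 47.1 CPM against 0.164, 0.487 and 0.483 CPM (log2 fold change 6.73 ± 0.61 SE, edgeR FDR 1.26e-05). Atf4, a leucine zipper factor needed for matrix synthesis, rose by 2.01 on the log2 scale, Msx2 by 5.19 and Twist1 by 1.50. The call of Twist1 was lost with the exon length trend removed (log2 fold change 0.76). Msx1 was the gene called lower (-1.34), and 3 genes were lower without replicate 2 of Itga8- BLC, 2 without its replicate 3 and 4 with library totals alone. Runx2, the master factor of the osteoblast lineage, had 35.9, 85.1 and 93.4 CPM against 81.6, 60.1 and 91.7 CPM and was not called (log2 fold change -0.12 ± 0.40 SE, edgeR FDR 0.84). Its libraries overlapped, with replicate 1 of Itga8- BLC the lowest of the 6.

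Of 44 collagen chain genes tested, 23 were called higher and 7 lower, with a median log2 fold change of 2.65 (2.53 with genes against libraries at the floor set at their bound). With a library left out, 19 to 23 were higher and 6 to 7 lower. Beside the chains of types I and XI, the highest of those called higher were chains of cartilage: Col2a1 at 34294, 63149 and 5269 CPM against 455, 395 and 1089 CPM (log2 fold change 5.73 ± 1.04 SE, edgeR FDR 0.00161), and Col9a3 at 3959, 5822 and 2781 CPM against 31.4, 27.5 and 103 CPM (log2 fold change 6.28 ± 0.76 SE, edgeR FDR 9.57e-05). By CPM in CD51+CD140a+ MSC, the chains called lower were led by the basement membrane genes Col4a1, with 23.7, 93.1 and 10.0 CPM against 1272, 706 and 1376 CPM (log2 fold change -4.72 ± 1.10 SE, edgeR FDR 0.00723), and Col4a2 (-3.63). Replicate 2 was the highest Itga8- BLC library for all of these 4 genes. Other type IV chains, Col4a3, Col4a4 and Col4a5, were called higher, from at most 89 counts in any of the 6 libraries. Each of them lost its call in some of the fits without 1 library (edgeR FDR 0.117 to 0.171). Col8a1, a short-chain collagen, was lower by a log2 fold change of -4.27, Col6a5 by -3.99 and Col23a1 by -2.57. Col5a3 (-2.90) lost its call under 6 alternatives, among them those without replicate 1 or 3 of either population (edgeR FDR 0.132 to 0.177). Col3a1, the type III chain of loose connective tissue, had 450.2, 1297 and 146 CPM against 1013, 716 and 1007 CPM and was not called (edgeR FDR 0.662).

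The enzymes and chaperones that fold, modify and crosslink collagen were called higher in 19 of 31 cases and lower in 3, with a median log2 fold change of 1.51. Serpinh1, the collagen chaperone HSP47, had 11807, 6411 and 5200.3 CPM against 1350.4, 1805 and 1728 CPM (log2 fold change 2.26 ± 0.60 SE, edgeR FDR 0.0145). Plod2, the lysyl hydroxylase of the collagen telopeptides, had 848, 1113 and 709 CPM against 49.9, 49.0 and 54.0 CPM (log2 fold change 4.13 ± 0.36 SE, edgeR FDR 1.04e-05). P4hb, a subunit of prolyl 4-hydroxylase, rose by 1.51 on the log2 scale, and Fkbp10, a prolyl isomerase of the endoplasmic reticulum, by 1.76. Ppib, another prolyl isomerase, rose by 1.51, with 25.0% of its exon bases shared with the opposite-strand gene Snx22. Pcolce, an enhancer of procollagen cleavage, rose by 1.24 and lost its call without replicate 3 of Itga8- BLC (edgeR FDR 0.101). Lower were the procollagen N-peptidase gene Adamts2 (-1.85), P3h2 (-1.94, 28.4% of exon bases overlapped by an opposite-strand gene) and Loxl1, a lysyl oxidase used for elastic fibres, at 15.5, 7.88 and 5.16 CPM against 226, 328 and 245 CPM (log2 fold change -4.81 ± 0.51 SE, edgeR FDR 4.01e-05). Lox itself was not called (edgeR FDR 0.767), with 519.8, 1999 and 817 CPM against 1009, 705 and 1045 CPM.

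The small leucine-rich proteoglycans, which bind collagen fibrils and limit their width, were called higher in 7 of 13 cases and lower in 2, with a median log2 fold change of 3.25. Fmod (fibromodulin) had 4547, 5796 and 3407 CPM in Itga8- BLC and 67.7, 59.7 and 86.5 CPM in CD51+CD140a+ MSC (log2 fold change 6.01 ± 0.42 SE, edgeR FDR 2.1e-06). Chad (chondroadherin), which binds integrins in cartilage, had 4448, 2535 and 3165 CPM against 17.6, 4.53 and 60.1 CPM (log2 fold change 6.95 ± 0.83 SE, edgeR FDR 8.6e-05). Dcn (decorin) rose by 3.25 on the log2 scale, Lum (lumican) by 3.89, Omd (osteomodulin) by 3.36 and Epyc (epiphycan) by 5.25, and 40.7% of the exon bases of Epyc overlapped an opposite-strand gene. Ogn (osteoglycin), by contrast, was at 53.2, 77.4 and 75.4 CPM against 471, 414 and 506 CPM (log2 fold change -2.76 ± 0.39 SE, edgeR FDR 0.000299), and Podn (podocan) was lower by a log2 fold change of -4.80. Biglycan (Bgn), with 2071, 2336 and 3399 CPM against 1268, 1099.5 and 1588 CPM, did not overlap but missed the fold threshold (log2 fold change 0.98, edgeR FDR 0.0198). Bgn passed as higher without replicate 1 or 2 of Itga8- BLC or replicate 3 of CD51+CD140a+ MSC (log2 fold change 1.04 to 1.14).

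The genes of LepR+ stromal identity were lower in Itga8- BLC. Of 18 genes tested, 16 were called lower and none higher at the same thresholds, with a median log2 fold change of -4.84. Their summed level was 2359 to 4313 CPM in Itga8- BLC and 30849.7 to 37307 CPM in CD51+CD140a+ MSC. Lpl, the lipoprotein lipase, had 18.8, 37.5 and 24.0 CPM against 3731, 2769.8 and 4522 CPM (log2 fold change -7.10 ± 0.44 SE, edgeR FDR 1e-06). Adipoq, the adiponectin gene active in these adipocyte-primed cells, had 13.3, 21.5 and 51.3 CPM against 2081, 2311 and 2351 CPM (log2 fold change -6.29 ± 0.71 SE, edgeR FDR 5.92e-05). Gas6, a ligand of the TAM receptors, had 108, 121 and 89.2 CPM against 5606, 5468 and 6349 CPM (log2 fold change -5.78 ± 0.36 SE, edgeR FDR 1.12e-06). In all 3 the populations were far apart without overlap. Hp (haptoglobin) was lower by a log2 fold change of -4.68. Apoe, an apolipoprotein gene, was lower by -1.03 and lost its call without replicate 1 or 2 of Itga8- BLC or without replicate 2 or 3 of CD51+CD140a+ MSC (edgeR FDR 0.149 to 0.178).

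The transcription factor Ebf3, which maintains these cells and their niche function, was at 0.0996, 0.463 and 1.02 CPM in Itga8- BLC and 61.0, 62.5 and 98.5 CPM in CD51+CD140a+ MSC (log2 fold change -7.15 ± 0.75 SE, edgeR FDR 3.69e-05). Foxc1, another factor that specifies them, had 155, 136 and 70.5 CPM against 218, 204 and 255 CPM. Foxc1 was not called (log2 fold change -0.91 ± 0.44 SE, edgeR FDR 0.135), although the libraries did not overlap. Cebpb, a factor of adipogenesis and inflammation, was the other member not called (edgeR FDR 0.201), at 461, 366 and 678 CPM against 467, 872 and 928 CPM, and its libraries overlapped.

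**Figure D2:**
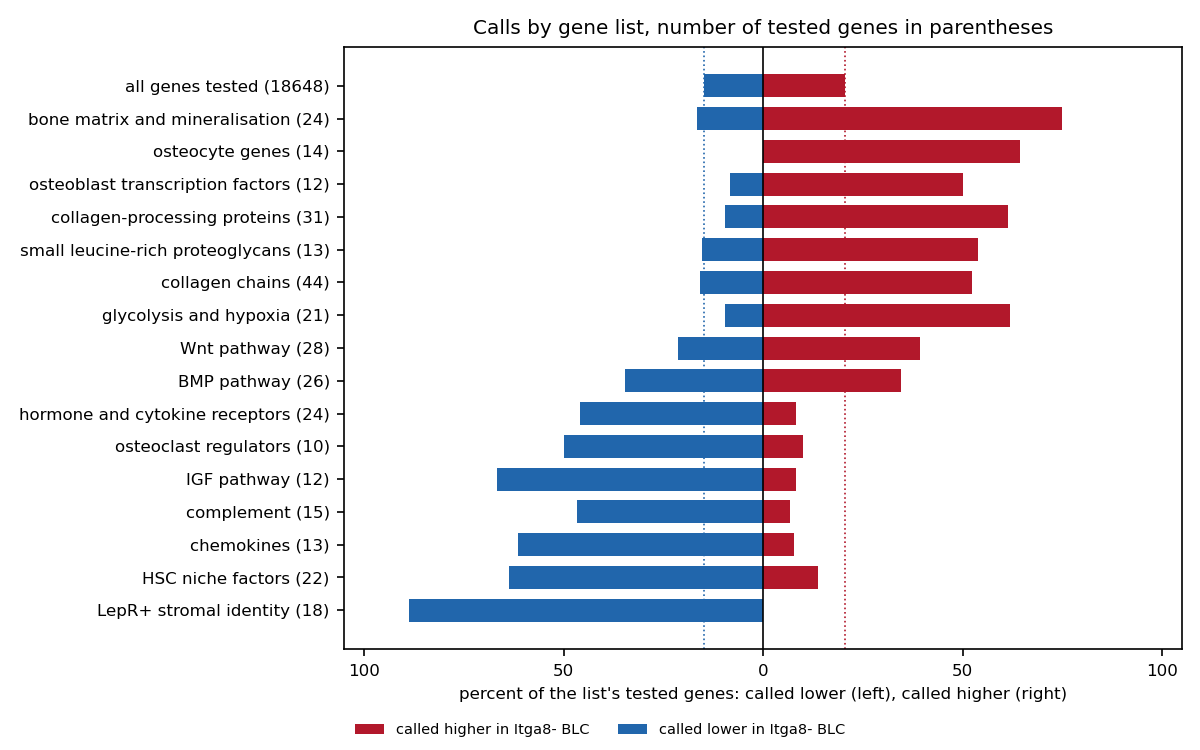
Percent of the tested genes of each list called higher (right, red) or lower (left, blue) in Itga8- BLC, with the number of genes tested in parentheses; dotted lines mark the shares of all genes tested, 20.4% higher and 14.9% lower. Bone matrix genes stood at 18 of 24 higher and the LepR+ genes at 16 of 18 lower.

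Factors that the marrow niche supplies to HSC were called lower in 14 of 22 cases and higher in 3, with a median log2 fold change of -3.75. The summed level of the list was 1077 to 1253 CPM in Itga8- BLC and 53569.8 to 70730.1 CPM in CD51+CD140a+ MSC, and most of the latter was Cxcl12. Kitl, the gene of stem cell factor, had 3.69, 4.45 and 5.22 CPM against 1207, 1291 and 1076 CPM (log2 fold change -8.06 ± 0.46 SE, edgeR FDR 8.18e-07). Vcam1, the adhesion molecule that holds haematopoietic cells, had 44.1, 77.5 and 52.3 CPM against 4258, 3199 and 4384 CPM (log2 fold change -6.09 ± 0.39 SE, edgeR FDR 1.22e-06). Tnc, which encodes the matrix protein tenascin C, had 36.3, 228 and 17.8 CPM against 8981, 8824 and 9906 CPM (log2 fold change -6.62 ± 1.27 SE, edgeR FDR 0.00223). Kitl was even among the Itga8- BLC libraries, whereas Tnc was far higher in replicate 2 than in the others. Per length, the mean level of Cxcl12 was 85.0 ± 30.5 TPM in Itga8- BLC and 21422 ± 4205 TPM in CD51+CD140a+ MSC, and that of Kitl was 2.19 ± 0.252 and 811 ± 97.0 TPM (mean ± SD, n = 3).

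The 3 niche genes called higher were Clec11a, Tgfb1 and Il11. Clec11a, a growth factor for haematopoietic and osteogenic progenitors also named osteolectin, had 538, 398 and 545 CPM against 76.6, 83.9 and 112 CPM (log2 fold change 2.44 ± 0.28 SE, edgeR FDR 7.44e-05). Il11, a cytokine of the interleukin 6 family, had 17.1, 11.0 and 29.8 CPM against 0.0820, 0 and 0.193 CPM (log2 fold change 7.67 ± 0.92 SE, edgeR FDR 8.6e-05). Tgfb1, the latent factor stored in bone matrix, had 74.1, 52.6 and 51.2 CPM against 22.5, 18.1 and 21.1 CPM, and its call was lost in every fit without 1 library except that without replicate 2 of Itga8- BLC (edgeR FDR 0.104 to 0.172). Thpo (thrombopoietin) stayed low in both, at 1.05, 1.44 and 0.959 CPM against 0.492, 0.545 and 0.580 CPM, and was not called (edgeR FDR 0.172).

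In the Wnt pathway, in which secreted ligands act through Frizzled and LRP receptors and are held back by several families of secreted inhibitors, 11 of 28 tested genes were called higher and 6 lower, with a median log2 fold change of 1.18. Among the ligands and their enhancers, Wnt11 was higher at 177, 113 and 152 CPM against 27.6, 40.0 and 40.1 CPM (log2 fold change 2.03 ± 0.28 SE, edgeR FDR 0.000221). The R-spondins, which raise the amount of receptor on the cell surface, were lower: Rspo2 had 0, 0.834 and 0 CPM against 123, 102 and 127 CPM (log2 fold change -8.62 ± 1.19 SE, edgeR FDR 0.000245), with 0 counts in 2 Itga8- BLC libraries, and Rspo3 9.01, 7.14 and 7.85 CPM against 84.7, 64.8 and 78.8 CPM (log2 fold change -3.25 ± 0.35 SE, edgeR FDR 4.5e-05). Of the receptors, Fzd1 was lower (-3.78), Lrp4, which was chosen after its values were seen, was higher at 12.6, 20.6 and 15.3 CPM against 3.31, 8.48 and 2.80 CPM (log2 fold change 1.73 ± 0.50 SE, edgeR FDR 0.0213), and Lrp5 and Lrp6 were not called (edgeR FDR 0.179 and 0.129).

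Secreted Wnt inhibitors differed in both directions. Sfrp5 (chr19:42197971-42202252), a decoy receptor, had 176, 253 and 234 CPM in Itga8- BLC and 0.0546, 0 and 0 CPM in CD51+CD140a+ MSC, at least 2507-fold higher than the floor of the latter. Frzb, a related decoy, had 95.2, 102 and 130.4 CPM against 2.90, 1.52 and 3.64 CPM (log2 fold change 5.34 ± 0.39 SE, edgeR FDR 2.6e-06). Notum, which removes the lipid of Wnt proteins, had 176, 190.3 and 127 CPM against 0.847, 0 and 0.483 CPM (log2 fold change 8.51 ± 0.92 SE, edgeR FDR 4.29e-05), and 38.1% of its exon bases overlapped Notumos on the other strand. Wif1, which binds Wnt proteins directly, rose by 1.92 on the log2 scale. In the opposite direction, Sfrp4 had 68.1, 36.3 and 35.3 CPM against 2139, 3351 and 3071 CPM (log2 fold change -5.94 ± 0.37 SE, edgeR FDR 1.12e-06), and Sfrp1 had 20.9, 18.0 and 7.67 CPM against 177, 174 and 190.1 CPM (log2 fold change -3.54 ± 0.51 SE, edgeR FDR 0.000316). Thus Sfrp5 and Frzb were higher and Sfrp1 and Sfrp4 lower in Itga8- BLC, each without overlap of libraries. Dkk3 was lower by a log2 fold change of -1.12 and lost its call without replicate 3 of CD51+CD140a+ MSC (log2 fold change -0.91 and edgeR FDR 0.0565). Lef1, a nuclear effector and target of the pathway, had 69.9, 80.1 and 56.4 CPM against 1.94, 3.18 and 0.548 CPM (log2 fold change 5.18 ± 0.61 SE, edgeR FDR 8.03e-05). Axin2, the usual target gene, stayed between 0.172 and 1.05 CPM and was not called (edgeR FDR 0.243).

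Bone morphogenetic proteins (BMP) are growth factors named for bone induction, and their antagonists trap them outside the cell. In this pathway 9 of 26 tested genes were called higher and 9 lower, with a median log2 fold change of -0.41. The ligands separated: Bmp7 had 184, 264 and 146 CPM in Itga8- BLC and 0.847, 0 and 0.161 CPM in CD51+CD140a+ MSC (log2 fold change 9.16 ± 1.03 SE, edgeR FDR 5.99e-05). Bmp3, whose product opposes the others, had 163, 274 and 241 CPM against 3.20, 3.73 and 0.483 CPM (log2 fold change 6.51 ± 0.65 SE, edgeR FDR 2.47e-05). Bmp8a had 35.0, 45.8 and 75.9 CPM against 0.191, 0 and 0.226 CPM (log2 fold change 8.51 ± 1.12 SE, edgeR FDR 0.000176). These 3 ligand genes were at or below 3.73 CPM in every CD51+CD140a+ MSC library. Bmp2 was higher by 1.36 on the log2 scale and lost its call without replicate 2 of either population (edgeR FDR 0.103 to 0.137).

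Bmp6 and Bmp4 went the other way, at 3.24, 11.9 and 3.48 CPM against 614, 600.2 and 869.9 CPM for Bmp6 (log2 fold change -6.81 ± 0.74 SE, edgeR FDR 4.44e-05) and a log2 fold change of -4.02 for Bmp4. Bmp5 was lower by -2.18, with 46.7% of its exon bases overlapped by an opposite-strand gene. Of the antagonists, Chrdl1 (chordin-like 1) had 151, 152 and 66.7 CPM against 3560.3, 3344 and 3587 CPM (log2 fold change -4.83 ± 0.41 SE, edgeR FDR 8.55e-06), and Fst (follistatin) had 4.18, 3.61 and 5.40 CPM against 284, 359 and 368 CPM (log2 fold change -6.26 ± 0.41 SE, edgeR FDR 1.34e-06). Fstl1 was lower by -3.33. Another antagonist gene, Chrd (chordin), went the other way. It was called higher and kept the call under all 17 alternatives (log2 fold change 1.69 to 2.58). Bambi, a pseudoreceptor that dampens signalling within the cell membrane, was higher at 437, 331 and 821 CPM against 63.5, 64.2 and 74.5 CPM (log2 fold change 2.97 ± 0.40 SE, edgeR FDR 0.000192). The target gene Id2 rose by 1.91 and lost its call without replicate 3 of Itga8- BLC (edgeR FDR 0.103), while Id1 and Id3 were not called (edgeR FDR 0.211 and 0.392). Without that library Id3 passed as lower (log2 fold change -1.24, edgeR FDR 0.0473).

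Insulin-like growth factor (IGF) genes were lower in 8 of 12 cases and higher in 1, with a median log2 fold change of -2.74. Igf1, the ligand, had 28.5, 50.1 and 21.4 CPM against 318, 287 and 311 CPM (log2 fold change -3.19 ± 0.39 SE, edgeR FDR 9.33e-05). Igfbp5, a binding protein that is stored in bone matrix, had 19.9, 57.9 and 13.4 CPM against 5932, 4090.1 and 6858 CPM (log2 fold change -7.53 ± 0.80 SE, edgeR FDR 3.92e-05). Igfbp4 had 109.8, 118 and 109.7 CPM against 4880.2, 3637 and 5558 CPM (log2 fold change -5.38 ± 0.38 SE, edgeR FDR 2.4e-06). The protease gene Pappa, whose product cuts IGFBP4 and frees the ligand, was lower as well (-5.12), and so was Igfbp3 (-6.50). The only binding protein called higher was Igfbp6, with 60.0, 39.7 and 128 CPM against 0.464, 1.09 and 0.515 CPM (log2 fold change 6.77 ± 0.70 SE, edgeR FDR 3.1e-05). Igf2 was lower by -2.29, with 62.8% of its exon bases shared with a same-strand gene model. The receptor gene Igf1r was not called (edgeR FDR 0.972), at 18.0, 6.72 and 2.88 CPM against 9.48, 8.34 and 10.8 CPM.

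**Figure D3:**
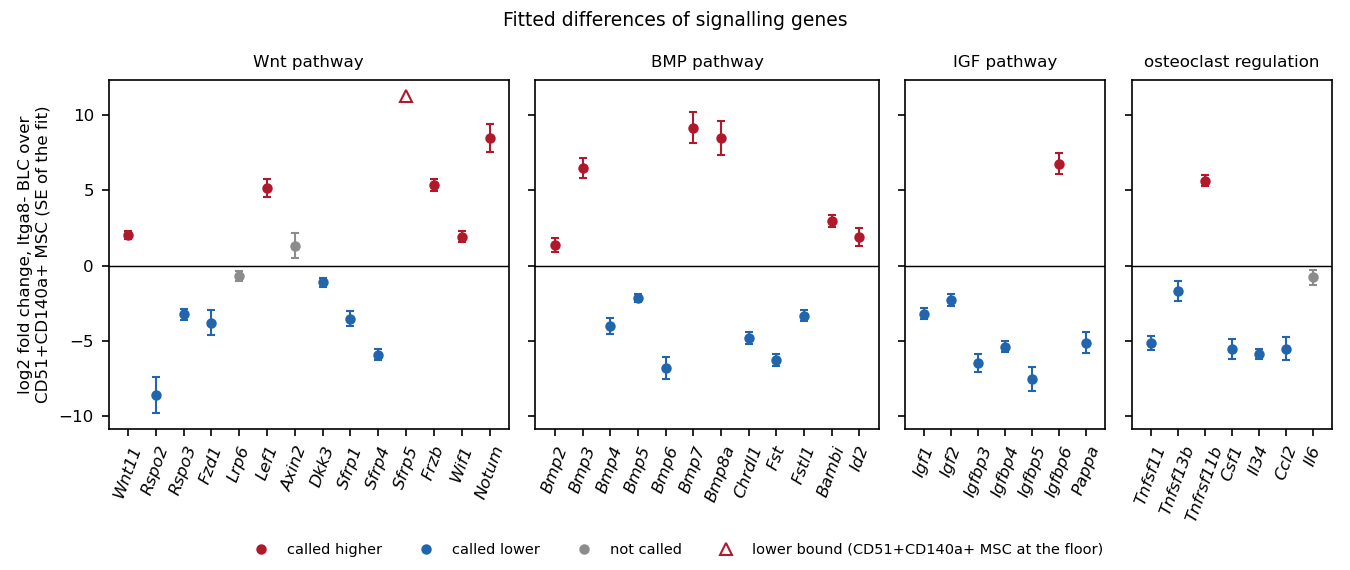
Fitted log2 fold changes of Itga8- BLC over CD51+CD140a+ MSC for named genes of 4 signalling lists, with the SE derived from the edgeR F statistic. Red marks genes called higher, blue lower and grey not called, and the open triangle is the lower bound for Sfrp5. Within the Wnt and BMP lists related genes lie on opposite sides of 0, such as Frzb at 5.34 and Sfrp4 at -5.94, or Bmp7 at 9.16 and Bmp6 at -6.81.

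Of 10 regulators of osteoclasts, 1 was called higher (2 without replicate 3 of CD51+CD140a+ MSC) and 5 lower, with a median log2 fold change of -1.24. Tnfsf11 encodes RANKL, the cytokine that drives osteoclast formation, and Tnfrsf11b encodes osteoprotegerin, its soluble decoy receptor. Tnfsf11 had 2.04, 5.24 and 4.50 CPM in Itga8- BLC and 156, 107 and 156 CPM in CD51+CD140a+ MSC (log2 fold change -5.15 ± 0.44 SE, edgeR FDR 7.95e-06). Tnfrsf11b had 282, 233 and 309.96 CPM against 6.53, 3.67 and 6.09 CPM (log2 fold change 5.66 ± 0.36 SE, edgeR FDR 1.2e-06). The decoy receptor was thus higher and its ligand lower in Itga8- BLC, in each of the 3 libraries. Csf1 and Il34, which encode the alternative ligands of the macrophage growth factor receptor, were both lower: Csf1 had 67.2, 52.3 and 20.4 CPM against 1818, 2830.00 and 1769 CPM (log2 fold change -5.52 ± 0.67 SE, edgeR FDR 9.57e-05), and Il34 had 4.63, 5.33 and 8.15 CPM against 301, 394 and 361 CPM (log2 fold change -5.87 ± 0.33 SE, edgeR FDR 8.18e-07). Il6 was not called, at 22.9, 17.1 and 34.8 CPM against 50.7, 30.7 and 47.7 CPM (edgeR FDR 0.225). The call of Tnfsf13b, lower by -1.69, was lost under 8 alternatives, among them every fit without 1 library except that without replicate 1 of CD51+CD140a+ MSC (edgeR FDR 0.106 to 0.241).

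Chemokines other than Cxcl12 were called lower in 8 of 13 cases and higher in 1 (median log2 fold change -2.49). Ccl2, which recruits monocytes, had 8.47, 4.12 and 22.9 CPM against 463, 695 and 481 CPM (log2 fold change -5.53 ± 0.77 SE, edgeR FDR 0.000259), and its neighbour Ccl7 had 6.72, 2.73 and 7.43 CPM against 179, 277 and 179 CPM (log2 fold change -5.23 ± 0.67 SE, edgeR FDR 0.000136). Cx3cl1, the membrane-bound chemokine fractalkine, was at 36.9, 33.3 and 17.2 CPM against 513, 528 and 666 CPM (log2 fold change -4.29 ± 0.62 SE, edgeR FDR 0.000343). Replicate 3 was the highest Itga8- BLC library for Ccl2 and Ccl7 and the lowest for Cx3cl1. Cxcl14 was lower by a log2 fold change of -2.49, Cxcl1 by -1.99 and Cxcl10 by -2.03. The eosinophil chemokine gene Ccl11 was called higher from low counts, at 1.10, 0.973 and 4.38 CPM, at least 24.4-fold higher than the floor of CD51+CD140a+ MSC.

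Complement genes were called lower in 7 of 15 cases and higher in 1. The median log2 fold change of this list was -2.97, and -0.58 when genes against libraries at the floor were set at their bound. Serping1, the C1 inhibitor, was among the 10 most counted genes of CD51+CD140a+ MSC, at 6388, 7741 and 7979 CPM against 83.1, 71.0 and 93.9 CPM in Itga8- BLC (log2 fold change -6.48 ± 0.30 SE, edgeR FDR 5.35e-07). C1ra and C1s1, the proteases of the first component, were lower by log2 fold changes of -5.30 and -5.02. C3, the central component, had 56.6, 132 and 14.0 CPM against 594, 369 and 625 CPM (log2 fold change -2.97 ± 0.72 SE, edgeR FDR 0.0092). C4b had 103, 313 and 24.8 CPM against 2006, 1619 and 2631 CPM (log2 fold change -3.83 ± 1.04 SE, edgeR FDR 0.016). For both C3 and C4b replicate 2 was the highest and replicate 3 the lowest Itga8- BLC library. Cfp (properdin), which myeloid cells secrete, was the member called higher (2.49).

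Receptors for hormones, growth factors and cytokines were called lower in 11 of 24 cases and higher in 2 (median log2 fold change -1.04). The 2 became 1 without replicate 2 of Itga8- BLC and without replicate 1 or 2 of CD51+CD140a+ MSC, and 4 with the exon length trend removed. Pth1r, the parathyroid hormone receptor of osteoblasts and chondrocytes, had 496, 739 and 731 CPM in Itga8- BLC and 181, 244 and 225 CPM in CD51+CD140a+ MSC (log2 fold change 1.60 ± 0.36 SE, edgeR FDR 0.00589). Fgfr3 was the other gene called higher, at 256, 522 and 82.2 CPM against 63.4, 35.7 and 93.5 CPM. Its libraries overlapped, and the call was lost without replicate 1 or 2 of either population (edgeR FDR 0.109 to 0.211). Pdgfrb, the PDGF receptor beta of perivascular cells, had 10.7, 41.4 and 2.22 CPM against 2066, 1672 and 2703 CPM (log2 fold change -6.89 ± 1.28 SE, edgeR FDR 0.00186). Fgfr2 was 105, 206 and 64.7 CPM against 1534, 1925 and 1659 CPM (log2 fold change -3.77 ± 0.55 SE, edgeR FDR 0.000369). Ghr, the growth hormone receptor, was 39.3, 62.1 and 45.5 CPM against 529, 703 and 571 CPM (log2 fold change -3.62 ± 0.27 SE, edgeR FDR 3.78e-06). All 3 were lower without overlap. Il1r1 was lower by -2.18. Il6st, the shared receptor chain of the interleukin 6 family, was lower by -1.87 and lost its call in all fits without 1 library except that without replicate 2 of Itga8- BLC (edgeR FDR 0.13 to 0.216). Vdr, the vitamin D receptor, was not called (edgeR FDR 0.97), at 84.1, 149.8 and 52.9 CPM against 105, 105 and 68.4 CPM.

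Glycolysis and hypoxia genes were called higher in 13 of 21 cases and lower in 2, with a median log2 fold change of 1.34. Scaled by library totals alone, 9 were higher. Pkm, pyruvate kinase, had 629, 673 and 734 CPM against 88.3, 121 and 98.6 CPM (log2 fold change 2.72 ± 0.26 SE, edgeR FDR 1.66e-05). Ldha, which makes lactate, had 1348, 1274 and 1955 CPM against 476, 517 and 442 CPM (log2 fold change 1.67 ± 0.29 SE, edgeR FDR 0.00128). Slc2a1, the glucose transporter GLUT1, had 164, 277 and 259.8 CPM against 44.9, 42.2 and 58.5 CPM (log2 fold change 2.27 ± 0.29 SE, edgeR FDR 0.000156). The 3 did not overlap between the populations. Eno1 rose by 1.55 on the log2 scale and Gpi1 by 1.35. Tpi1 rose by 1.34 and lost its call with library totals alone (log2 fold change 0.98) and with the exon length trend removed (0.90). Vegfa, the angiogenic factor induced by hypoxia, was lower at 239, 229 and 123 CPM against 641, 532 and 661 CPM, and lost its call without replicate 3 of either population (edgeR FDR 0.103 to 0.153). Gapdh had only 0.299 to 5.44 CPM, and because it has many near-identical pseudogenes its call is uncertain.

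Adipocyte genes were called higher in 2 of 12 tested cases and lower in none at the same thresholds (median log2 fold change 0.70). These were the lipase gene Pnpla2 (1.03, a call lost under 3 alternatives, with log2 fold change 0.87 and edgeR FDR 0.0481 without replicate 3 of Itga8- BLC) and Cidec, a lipid droplet gene with 0 counts in 4 of the 6 libraries, and 1 gene was called without replicate 2 of Itga8- BLC. Fabp4, the fatty acid-binding protein of adipocytes, was not called, at 4.93, 5.47 and 21.6 CPM against 5.85, 13.2 and 9.95 CPM (edgeR FDR 0.922).

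Cartilage markers were higher in Itga8- BLC throughout: all 16 of 16 tested were called, with a median log2 fold change of 6.00 and a summed level of 20549.8 to 88505 CPM against 668 to 1569 CPM. Cnmd (chondromodulin), an anti-angiogenic protein of cartilage, had 6227, 3268 and 4515 CPM against 30.7, 58.6 and 69.6 CPM (log2 fold change 6.46 ± 0.57 SE, edgeR FDR 1.11e-05). Matn3, a matrix linker of growth cartilage, had 4242, 3468 and 3104 CPM against 35.2, 26.3 and 43.9 CPM (log2 fold change 6.68 ± 0.96 SE, edgeR FDR 0.000329). Col9a2 had 3851, 3455 and 1171 CPM against 7.90, 9.98 and 41.0 CPM (log2 fold change 7.17 ± 1.04 SE, edgeR FDR 0.00033). Sox9, the chondrocyte master factor, which was chosen after its values were seen, had 658, 830.1 and 456 CPM against 50.2, 51.7 and 45.8 CPM (log2 fold change 3.72 ± 0.47 SE, edgeR FDR 0.000137). The summed cartilage level was highest in replicate 2 and lowest in replicate 3 of Itga8- BLC, and its part in the matrix results was not tested. Several of the bone matrix genes, among them Col11a1, Col11a2 and Mmp13, are also made by chondrocytes.

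Tendon and ligament markers were higher in 8 of 10 cases and lower in 2 (median log2 fold change 7.67, and 7.26 at the bounds). The lower genes were Tnc and Mkx, and Mkx lost its call without replicate 1 of either population (edgeR FDR 0.118 to 0.122). Their summed level, however, was 11870.5 to 15265 CPM against 8950.01 to 10229 CPM, since Tnc, which is also on this list, made up most of it in CD51+CD140a+ MSC. Comp, a matrix protein of cartilage and tendon, had 3979.6, 5223 and 4656 CPM against 38.4, 36.7 and 147 CPM (log2 fold change 5.96 ± 0.60 SE, edgeR FDR 2.47e-05). Tnmd (tenomodulin), a marker of mature tendon cells, had 32.9, 20.3 and 33.8 CPM against 0.0273, 0 and 0.129 CPM (log2 fold change 9.04 ± 1.02 SE, edgeR FDR 6.16e-05). Thbs4 had 241, 534 and 294 CPM against 0.0273, 0.229 and 0.419 CPM (log2 fold change 10.62 ± 0.91 SE, edgeR FDR 8.65e-06). All 3 were higher in each Itga8- BLC library than in any CD51+CD140a+ MSC library. The part of tendon cells in the results was not tested.

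Blood cell markers were present although the cells had been sorted as CD45- Ter119-. Neutrophil granule genes were called higher in 11 of 14 cases (median log2 fold change 3.93), with a summed level of 6991 to 9766 CPM in Itga8- BLC and 1179 to 1867 CPM in CD51+CD140a+ MSC. Ngp had 1721, 1596 and 1549 CPM against 146, 80.5 and 49.6 CPM (log2 fold change 4.14 ± 0.90 SE, edgeR FDR 0.00487), and Elane, neutrophil elastase, had 980.1, 501 and 743 CPM against 61.2, 156 and 96.1 CPM (log2 fold change 2.83 ± 0.53 SE, edgeR FDR 0.00202). Mpo (myeloperoxidase) had 4153, 2360.4 and 1319 CPM against 764, 1409 and 869.5 CPM. The Mpo libraries overlapped, and its call was lost without replicate 1 of Itga8- BLC or without replicate 1 or 3 of CD51+CD140a+ MSC (edgeR FDR 0.124 to 0.196). Macrophage markers were called higher in 4 of 11 cases, and in 2 without replicate 3 of CD51+CD140a+ MSC, and 1 was lower without replicate 2 of Itga8- BLC. Their summed level of 862 to 999 CPM against 60.7 to 121 CPM was mostly Lyz2, at 778, 838 and 935 CPM against 81.7, 49.6 and 31.5 CPM (log2 fold change 3.97 ± 0.81 SE, edgeR FDR 0.00342), while C1qa, Adgre1 and Mrc1 stayed at or below 3.67 CPM in all 6 libraries.

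Lymphoid markers were called higher in 6 of 8 tested cases, with sums of 71.3 to 119 CPM against 15.6 to 41.9 CPM. This count fell to 0 without replicate 2 or replicate 3 of CD51+CD140a+ MSC and to 1 without replicate 1 of Itga8- BLC, and it was 0 with the exon length trend removed and 2 at an FDR below 0.05. Osteoclast markers, 3 of 6 tested called higher, summed to 308 to 845 CPM against 149 to 163 CPM. Most of this was Ctsk (cathepsin K), at 277, 289 and 802 CPM against 138, 126 and 144 CPM, whose call was lost with the length trend removed (log2 fold change 0.84), while Acp5, the tartrate-resistant phosphatase of osteoclasts, was not called (edgeR FDR 0.384). Erythroid markers were not called higher in any of 10 cases and were lower in 1, which became 0 without replicate 1 and 2 without replicate 2 of Itga8- BLC, 3 with library totals alone and 4 with the length trend removed (summed level 396 to 539 CPM against 539 to 816 CPM). Megakaryocyte markers were called higher in 1 of 7 cases (0 without replicate 1 of either population), with sums of 21.8 to 40.8 CPM against 15.9 to 44.0 CPM. The part of blood cells in the results was not tested.

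Of the vessel and nerve markers, those of mural cells were called higher in 5 of 13 cases and lower in 3, and summed to 167 to 667 CPM in Itga8- BLC against 1969 to 2966 CPM, most of it Pdgfrb. Cspg4, the proteoglycan NG2 of pericytes and chondrocytes, was higher at 94.4, 511 and 128 CPM against 5.0, 3.38 and 5.12 CPM (log2 fold change 5.76 ± 0.96 SE, edgeR FDR 0.000903), whereas Notch3 was lower at 0.199, 1.39 and 0.120 CPM against 168, 61.7 and 106 CPM (log2 fold change -7.56 ± 1.32 SE, edgeR FDR 0.00124). Without replicate 1, 2 or 3 of Itga8- BLC 4, 3 and 3 mural genes were higher. Without replicate 1, 2 or 3 of CD51+CD140a+ MSC they were 3, 4 and 3. The 3 mural genes called lower became 6 with the fit on the 6 compared libraries alone and 5 with library totals alone, and 3 to 4 were lower with a library left out. Endothelial markers were called higher in 2 (1 without replicate 1 of Itga8- BLC) and lower in 2 of 12 cases (1 without replicate 1 or 3 of Itga8- BLC or replicate 3 of CD51+CD140a+ MSC) and summed to 46.0 to 55.2 CPM against 81.0 to 105 CPM. Eng (endoglin) was the most counted of those called lower (-2.40). Schwann cell markers were called higher in 4 of 5 cases (3 to 4 with a library left out), with sums of 47.7 to 82.0 CPM against 5.56 to 13.9 CPM. Skeletal muscle markers were called higher in 4 of 10 cases (sums of 41.6 to 109.7 CPM against 3.41 to 4.62 CPM), led by Tnni2 at 33.1, 28.8 and 102 CPM against 0.0820, 0 and 0.870 CPM.

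Genes of Sca-1+ adventitial fibroblasts were called higher in 9 of 10 cases (median log2 fold change 3.42, and 2.84 at the bounds), at low sums of 121 to 194 CPM against 34.1 to 50.4 CPM. Ly6c1 had 27.3, 13.4 and 43.8 CPM against 0.191, 0 and 0.193 CPM (log2 fold change 7.73 ± 0.88 SE, edgeR FDR 6.5e-05), and Pi16, a marker of adventitial progenitors, had 4.98, 5.75 and 1.98 CPM against 0.137, 0 and 0.0322 CPM (log2 fold change 6.07 ± 0.88 SE, edgeR FDR 0.000346), which was at or near the floor in CD51+CD140a+ MSC. Dpp4 was the member not called (edgeR FDR 0.376), and it passed as higher without replicate 3 of Itga8- BLC (log2 fold change 1.22, edgeR FDR 0.0564). The calls of Anxa3 (1.11) and Il33 (1.83) were lost under 9 and 8 alternatives. For Anxa3 they included every fit without 1 library except that without replicate 2 of Itga8- BLC (edgeR FDR 0.141 to 0.21), and for Il33 those without replicate 1 or 3 of either population (edgeR FDR 0.125 to 0.222).

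**Figure D4:**
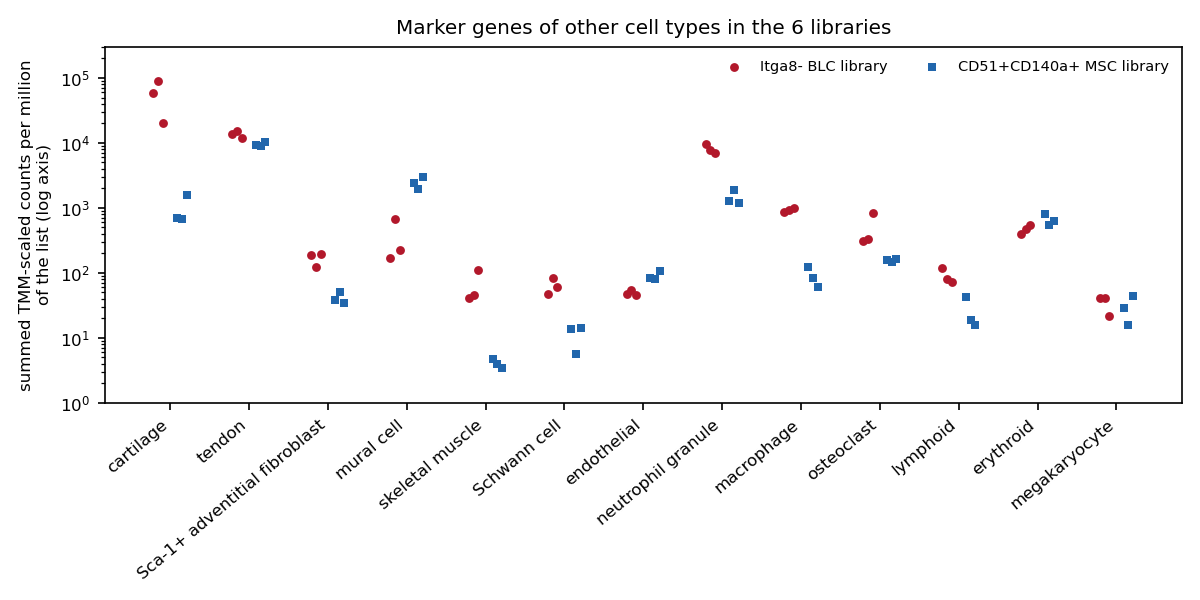
Summed TMM-scaled CPM (log axis) of marker lists of 13 other cell types in each library; red circles are Itga8- BLC and blue squares CD51+CD140a+ MSC. Cartilage markers summed to 20549.8 to 88505 in Itga8- BLC and 668 to 1569 in CD51+CD140a+ MSC, whereas mural and endothelial sums were higher in CD51+CD140a+ MSC.

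Immediate early and stress genes, which digestion and sorting can induce, were called higher in 6 of 21 cases and lower in 7 (median log2 fold change -0.69), and lower in 11 with library totals alone. Egr1 had 2107, 3038 and 1992 CPM in Itga8- BLC and 5839.8, 6352 and 7376 CPM in CD51+CD140a+ MSC (log2 fold change -1.45 ± 0.33 SE, edgeR FDR 0.00588), and Nr4a1 had 526, 468 and 251 CPM against 1384, 2424 and 1633 CPM (log2 fold change -2.13 ± 0.56 SE, edgeR FDR 0.0134). Jun, Junb, Zfp36 and Fosb were lower by log2 fold changes of -1.39, -1.23, -1.33 and -1.52, whereas Fos was not called (edgeR FDR 0.165) but passed as lower without replicate 3 of Itga8- BLC (log2 fold change -1.13, edgeR FDR 0.0456). In the other direction, Ier3 was 683, 749.6 and 3159 CPM against 134, 88.2 and 146 CPM (log2 fold change 3.64 ± 0.60 SE, edgeR FDR 0.000819), Atf3 rose by 1.89 and the heat shock genes Hspa1a and Hspa1b by 1.94 and 1.58. Replicate 3 was the highest Itga8- BLC library for Ier3 and Atf3. The calls of Hsp90aa1 and Hsph1, also higher, were lost under 3 and 9 alternatives. For Hsp90aa1 these were the fits without replicate 3 of Itga8- BLC or replicate 2 or 3 of CD51+CD140a+ MSC (edgeR FDR 0.103 to 0.171), and for Hsph1 they included those without replicate 1 or 2 of Itga8- BLC or replicate 2 or 3 of CD51+CD140a+ MSC (log2 fold change 0.88 to 0.99 and edgeR FDR 0.0831 to 0.099).

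Of 14 cell cycle genes 12 were not called. Cdk1 was higher (1.19) and Mki67 lower (-1.33), and both calls were lost with a library left out, that of Cdk1 without replicate 1 of Itga8- BLC or replicate 2 of CD51+CD140a+ MSC (edgeR FDR 0.102 to 0.107) and that of Mki67 without replicate 3 of Itga8- BLC or replicate 1 or 3 of CD51+CD140a+ MSC (edgeR FDR 0.128 to 0.165). Of 39 Hox genes, which record the position of a cell along the body, 23 were tested, 3 were called higher and 5 lower (median log2 fold change -0.90). Hoxa10 had 18.0, 17.5 and 27.3 CPM against 68.9, 59.9 and 69.9 CPM (log2 fold change -1.66 ± 0.31 SE, edgeR FDR 0.00178), Hoxa9 was lower by -2.23, and Hoxb2 had 14.1, 13.1 and 42.4 CPM against 4.13, 4.27 and 5.93 CPM (log2 fold change 2.28 ± 0.56 SE, edgeR FDR 0.00938). Hoxa3, Hoxa7, Hoxc5, Hoxd9 and Hoxd10 lost their calls under 3 to 9 alternatives, and the counts moved with single libraries. Without replicate 1, 2 or 3 of Itga8- BLC 2, 2 and 2 Hox genes were higher and 3, 2 and 5 lower. Without replicate 1, 2 or 3 of CD51+CD140a+ MSC 1, 1 and 2 were higher and 3, 2 and 3 lower. The iliac bones entered the Itga8- BLC preparation alone, and their part in these values was not tested.

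The genes with the largest fitted differences were mostly above the floor in 1 population alone. Beside Sfrp5, the 10 most positive were Krt16, Mmp3, Lrtm2, Ranbp3l, Plet1os, Plet1, Elf3, Gfra3 and Wnt7b. For all 10, every CD51+CD140a+ MSC library was at or under the floor. Mmp3 (stromelysin 1, a matrix protease) had 129.6, 55.6 and 161 CPM and was at least 1310-fold higher. Krt16, a keratin gene, had 41.9, 46.4 and 78.1 CPM and was at least 629-fold higher. Plet1, which encodes a surface antigen of progenitor cells, had 59.8, 31.8 and 79.4 CPM and was at least 646-fold higher, and the opposite-strand gene Plet1os overlaps 13.4% of its exon bases. The 10 most negative were Cnnm1, Slco1a5, Ccl19-ps3, Ptchd1, Cbln1, Slco1a4, Tmem178, Akr1c19, Prr16 and H2-Q1. Cnnm1 had 0 counts in every Itga8- BLC library and 58.0, 55.0 and 63.5 CPM in CD51+CD140a+ MSC, at least 377-fold lower in Itga8- BLC. Slco1a5, an organic anion transporter, had 0 counts as well and was at least 238-fold lower. The value of H2-Q1 rested on replicate 3 of CD51+CD140a+ MSC (0.355, 0.287 and 69.3 CPM), and it belongs to a family of near-identical genes.

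By reads, which scale with length as well as level, the 10 most counted genes of Itga8- BLC, by their mean over the 3 libraries, were Sparc, Col1a2, Col1a1, Col2a1, Serpinf1, Serpinh1, Ccn1, Dcn, Actb and Cnmd. Serpinf1, whose product PEDF is an inhibitor of vessel growth needed for normal mineralisation, had 6384, 6606 and 21919.6 CPM against 198, 246 and 262 CPM (log2 fold change 5.63 ± 0.66 SE, edgeR FDR 7.44e-05). In CD51+CD140a+ MSC they were Cxcl12, Ibsp, Tnc, Ccn1, Serpine2, H2-D1, Serping1, Egr1, Lepr and Gpx3. Serpine2, the protease inhibitor nexin 1, had 466, 352 and 549 CPM against 6529, 9817 and 8187 CPM (log2 fold change -4.17 ± 0.34 SE, edgeR FDR 5.7e-06). Ccn1, a matricellular protein gene, was on both lists, at 5843, 5201 and 9631 CPM against 6456, 10560.3 and 10223 CPM, and was not called (edgeR FDR 0.335). Gpx3, a secreted glutathione peroxidase, was lower in Itga8- BLC (-1.90).

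The differences also went with the length of the gene. Over 6869 genes with a mean log2 CPM of at least 4, log2 fold change and summed exon length had a rank correlation of -0.358 across genes, which are not independent of each other. In 5 equal classes of exon length the median log2 fold change was 0.67, 0.28, 0.0054, -0.22 and -0.57 from the shortest (57 to 2671 bases) to the longest (7918 to 123179 bases). The percentage called higher went from 31.3 to 6.41 and that called lower from 8.51 to 24.0 over the same classes. Within Itga8- BLC the libraries differed in the same way: the deviation from the population mean had a rank correlation with length of -0.0838 in replicate 1, 0.586 in replicate 2 and -0.54 in replicate 3, against 0.206, -0.28 and 0.176 in CD51+CD140a+ MSC. Median deviations went from -0.48 to 0.53 from the shortest to the longest class in replicate 2 and from 0.50 to -0.40 in replicate 3. With the trend removed, 3397 genes were called higher and 2916 lower, of which 3040 and 2445 were also called in the same direction without that step. The part of length in single differences was otherwise not tested.

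**Figure D5:**
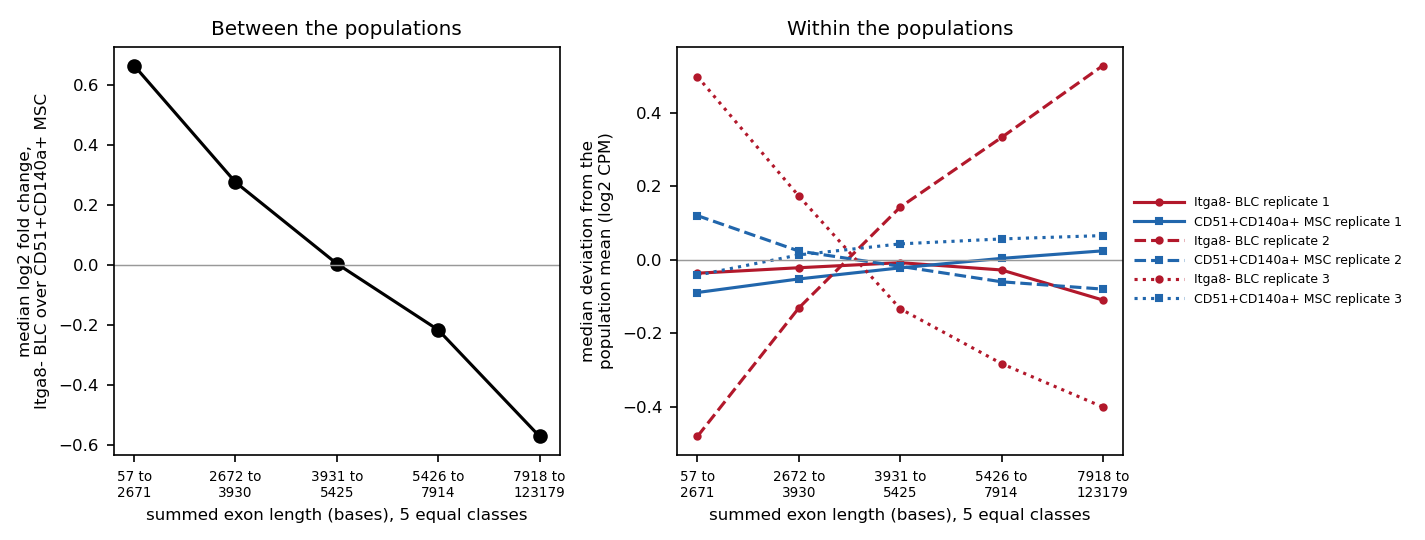
Left: median log2 fold change of Itga8- BLC over CD51+CD140a+ MSC in 5 equal classes of summed exon length (bases), falling from 0.67 to -0.57. Right: median deviation of each library from its population mean (log2 CPM) in the same classes; Itga8- BLC replicates 2 and 3 diverge in opposite directions, from -0.48 to 0.53 and from 0.50 to -0.40.

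The 10 genes with the widest spread among the Itga8- BLC libraries were Nfatc2, Tgfbr3, 2810430I11Rik, Col10a1, Megf6, Atp2a3, Apol7d, Tnc, C4b and Col16a1. Replicate 2 was the highest library for 9 of them, and replicate 3 for 2810430I11Rik. Col10a1, the collagen of hypertrophic cartilage, had 12.7, 192 and 26.4 CPM against 0, 0 and 0.612 CPM (log2 fold change 8.58 ± 2.29 SE, edgeR FDR 0.0147). Nfatc2, a calcium-regulated transcription factor gene with a summed exon length of 10578 bases, had 67.4, 352 and 18.0 CPM against 2.35, 1.18 and 2.80 CPM (log2 fold change 6.11 ± 1.25 SE, edgeR FDR 0.00332). Tgfbr3, the co-receptor betaglycan, had 41.7, 164 and 10.1 CPM against 873, 869 and 872 CPM (log2 fold change -3.60 ± 0.95 SE, edgeR FDR 0.0139), and its 3 CD51+CD140a+ MSC libraries were nearly level.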

How the data were processed

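RNA was amplified from 2000 sorted cells per library with SMART-Seq v4, tagged with Nextera XT (chemistry that does not mark the strand) and sequenced on a NextSeq 500. The authors deposited raw read counts per Ensembl gene. Their methods name TopHat and Bowtie2 on mm10, whereas the submitters' processing notes list FastQC 0.11.7, Trimmomatic 0.38, HISAT2 2.1.0, SAMtools 1.9 and featureCounts 1.6.3; the strand setting and annotation release were not given in the sources used here. Of 49585 genes, 49326 matched GENCODE M21 on GRCm38.

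All 12 libraries (4 groups of 3) entered 1 quasi-likelihood fit of edgeR 4.0.16 in R 4.3.3, with TMM scaling, only genes that reached 0.5 CPM of unscaled totals somewhere, and Benjamini-Hochberg adjustment. A gene was called at FDR under 0.1 and above 2-fold, the thresholds that the study states for its differing genes. Each SE of a log2 fold change was derived from the test. It is the absolute log2 fold change divided by the square root of the F statistic. DESeq2 1.42.0, limma 3.58.1 and 15 other settings were alternatives, of which removal of the exon length trend was chosen after seeing the data. Exact permutation tests of 3 against 3 libraries cannot go below p = 0.1 and were not used. Scripts were tested on simulated data. Gene lists and members were chosen with earlier results of these data known. From each list, called genes were named in order of mean CPM in the higher population, at most 6 each way, with defining genes not called. To these were added the sorting and given markers, the 10 largest differences each way of at least 10 CPM without overlap, the 10 most counted genes of each population and the 10 widest among Itga8- BLC of at least 100 CPM in 1 library. Same-numbered libraries did not deviate together (correlations -0.043, -0.297 and -0.198 over 12547 genes), so numbers were not taken as pairs. Some members of the lists are counted but not reported here by name.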

Additional observations from a re-analysis of the deposited data

How the results depend on the processing

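Over the 17 alternatives, the number of genes called ranged from 2934 to 4054 higher and from 2121 to 4090 lower in Itga8- BLC, within 1.5 times of 3808 and 2770 in each. The median log2 fold change over all genes tested moved from 0.091 to -0.24 with library totals alone and to -0.033 with the exon length trend removed, a setting chosen after seeing the data; both are set by how the values are scaled. With a library left out, 3028 to 3877 genes were higher and 2121 to 3389 lower, with a median of 0.036 to 0.128. With the replicate number as a term (replicate block), 3362 genes were higher and 2392 lower, and the median was 0.105. Same-numbered libraries did not deviate together, so this fit does not rest on pairs. limma called 3725 and 3264, DESeq2 4054 and 2961, the 6 libraries alone 3733 and 3047, and FDR below 0.05 left 3083 and 2177. With library totals alone 41.8% of the calls were higher, against 57.9%. No called gene on the lists or named reversed its direction. Hox genes called higher numbered 1 in the fit of the 6 libraries alone and 5 without a filter beyond 1 count, against 3. Of 335 called genes on the lists or named, 271 kept the call under every alternative that gave them a value (all 17 for 267 of them) and 64 lost it under at least 1; of 191 not called, 70 passed under at least 1.

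Depth limited the low genes: the floor of 3 counts was 0.0820 to 0.180 CPM, and 908 genes called higher and 357 called lower could be given only as bounds. Neither the preparation nor the markers of cartilage, tendon and blood cells could be separated from the population.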
